A study of Mus musculus with 5 samples.

Results

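The BCL2 family genes described here are 10 genes listed by symbol: the survival genes Bcl2, Bcl2l1 and Mcl1, the effector genes Bax and Bak1, and the BH3-only genes Bcl2l11, Bbc3, Pmaip1, Bid and Bad. Of these 10 genes, 9 were named by an array feature of their own and are described, out of 22180 genes in all, and Bax was not analysed here. Each gene is represented by the feature that named no other gene, and where several did, by the brightest on average over the 5 arrays. Hematopoietic stem cells (HSCs), the marrow cells that renew the blood lineages, came from C57BL/6 mice. Stem and progenitor cells were cultured for 24 h with 5 µM all-trans retinoic acid (ATRA, the active form of vitamin A) or with the solvent DMSO alone, followed by a flow cytometry sort for HSCs. RNA was measured on 5 arrays, 3 of DMSO and 2 of ATRA. The age and number of the mice are not given in the labels, which also do not say that replicates came from separate cultures. P-values thus reflect the spread of these arrays alone, and that spread may be technical.

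BCL2 family proteins decide at the outer membrane of mitochondria whether a cell lives or dies. Survival proteins such as BCL2, BCL-XL (encoded by Bcl2l1) and MCL1 hold back the effectors BAX and BAK, which otherwise form pores that release cytochrome c and start the caspase cascade. BH3-only proteins sense stress or the loss of growth factors and either block the survival proteins or activate the effectors. In blood stem cells MCL1 is known to be needed for survival, and raised BCL2 is known to protect these cells from death. Most family members are also controlled at the protein level, which arrays do not measure.

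The promoter letters of the members that the results turn on came from RefSeq, assembly GRCm38.p6. Windows of 9 of the 10 genes were used. These 9 include Bax, which has no expression values here, and leave out Pmaip1, whose promoter was not searched. Each window held the 250 bases before an annotated start, and 15 windows of the 9 genes were searched on both strands for AGGTCA (the half-site of retinoic acid receptors), GTAAACA (the core bound by FOXO factors), TTCNNNGAA (STAT factors), CACGTG (the E-box) and GGGCGG (the GC box). No match of one motif overlapped a match of another. AGGTCA was in 1 of the 15 windows, against 14% of all 32851 windows of that length. GTAAACA was in 2, against 3.17% of all windows, and CACGTG in 2, against 6.02%. TTCNNNGAA was in 0, against 7.02%, and GGGCGG in 10, against 32.7%. Several windows come from the same gene and some windows of Bbc3 overlap, so these counts are not of separate units. By gene, GGGCGG was in 7 of the 9, and the share over all genes was not computed. A match describes the letters and is no evidence of binding.

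Bcl2 had the largest difference, and the dim Bcl2l11 was the lowest, without passing, once the dependence on expression level was subtracted. The windows of Bcl2 and Bcl2l11 are therefore shown. They lie at chr1:106714291-106714540 (minus strand) and chr2:128125788-128126037 (plus strand), each directly before the annotated span of its gene. Capitals mark GGGCGG and GTAAACA on either strand, and AGGTCA is in neither window. Both are written 5′ to 3′ on the strand of the gene.
Bcl2: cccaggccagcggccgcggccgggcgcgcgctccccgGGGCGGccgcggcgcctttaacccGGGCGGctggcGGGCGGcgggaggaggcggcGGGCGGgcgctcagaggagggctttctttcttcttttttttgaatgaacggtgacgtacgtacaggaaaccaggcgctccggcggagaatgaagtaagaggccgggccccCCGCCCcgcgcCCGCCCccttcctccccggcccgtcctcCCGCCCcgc
Bcl2l11: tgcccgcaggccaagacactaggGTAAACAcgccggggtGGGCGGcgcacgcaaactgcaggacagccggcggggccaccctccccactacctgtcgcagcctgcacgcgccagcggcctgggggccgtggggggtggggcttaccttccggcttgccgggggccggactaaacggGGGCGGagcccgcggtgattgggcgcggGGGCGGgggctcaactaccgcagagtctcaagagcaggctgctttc

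The other AGGTCA and GTAAACA matches lie before an inner start of Bcl2l1 and of Bbc3, within the annotated spans of these genes. They are shown with 30 bases each because Bcl2l1 was the only searched member whose window held the receptor half-site. This stretch of Bcl2l1 is at chr2:152828576-152828605 (minus strand), with the half-site 104 bases before that start. The FOXO core of Bbc3, at chr7:16310083-16310112 (plus strand), begins 167 bases before its start, and that of Bcl2l11 227 bases before. Capitals mark the match, which is on the strand opposite to the gene in both.
Bcl2l1: taactggccatgTGACCTtggacaggctgg
Bbc3: tctggcgggttTGTTTACaaacaatggggt

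The ATRA arrays spanned fewer log2 units than the DMSO arrays, which bears on every value given here. The SD over all 41345 features was 1.96 to 1.97 in DMSO, 1.77 in ATRA replicate 1 and 1.49 in ATRA replicate 2. DMSO arrays correlated with each other at r = 0.966 to 0.978, but the 2 ATRA arrays at only 0.73. ATRA replicate 1 correlated with DMSO arrays at 0.81 to 0.83 and ATRA replicate 2 at 0.60 to 0.64. Genes bright in DMSO tended to be lower in each ATRA array. Each member is therefore also set against the genes whose DMSO mean lay within 0.5 log2 units of its own. Fits in which this dependence on DMSO level was subtracted from each array are called fits with the level trend removed. The labelled cell type was checked on 10 HSC markers out of 12 listed, all above the median of all features (6.03) in both groups. Their mean level was 8.58 to 8.84 in DMSO and 7.52 and 6.64 in ATRA replicates 1 and 2. Kit, the stem cell factor receptor, had means of 10.94 in DMSO and 7.69 in ATRA. It was 1 of 6 HSC markers that fell at an adjusted p under 0.05 (limma), where 15.5% of all genes fell. The other 4 did not pass. Among them, Meis1 (-2.58) and Slamf1 (-1.43) had both ATRA values below all DMSO values, as 29.2% of all genes did. The groups of Procr (-0.30) overlapped. Hoxb5 (0.35) had both ATRA values above all DMSO values, as 33% of all genes did. With the level trend removed 0 of the 10 passed. Mean levels were 5.99 to 6.30 in DMSO and 6.28 to 6.55 in ATRA for 10 myeloid markers, 6.41 to 6.50 and 6.31 to 6.55 for 5 erythroid markers, 8.200 to 8.37 and 7.69 to 7.77 for 5 megakaryocyte markers, and 5.29 to 5.43 and 5.64 to 6.09 for 7 lymphoid markers. The median of 6.03 was exceeded in DMSO by 6 of the 10 myeloid, 3 of the 5 erythroid, 5 of the 5 megakaryocyte and 1 of the 7 lymphoid markers. In ATRA it was exceeded by 9, 4, 5 and 3 of them. Lying above this median thus does not by itself set HSCs apart. No marker was at 0, as array values carry background. The part of these markers and of array spread in the results was not tested, and fewer cells of a type and less RNA per cell cannot be told apart in such samples.

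The comparison of ATRA with DMSO asked how retinoic acid bears on the transcripts of cultured HSCs. Of the survival genes, Bcl2 and Bcl2l1 fell with ATRA and Mcl1 did not pass the test. None of the 6 death-promoting members passed, among them Bak1 and the 5 BH3-only genes. In all, 2 of the 9 members fell, 0 rose and 7 did not pass an adjusted p of 0.05 (limma, Benjamini-Hochberg over all genes), and 3 had an unadjusted p under 0.05. Over all genes 15.5% fell, 6.48% rose and 21.9% passed in either direction, so the members' share lies near the background. The split of 1437 higher and 3428 lower genes became 560 and 4542 after median centring, 439 and 1743 after repeated quantile normalization, and 392 and 270 with the level trend removed. Both calls ended with the level trend removed, where 0 members passed (limma, 4 at an unadjusted p under 0.05) against 2.98% of all genes, 1.22% lower and 1.77% higher. These 4 were Bcl2l1, Bcl2l11 and Bbc3 as lower and Mcl1 as higher. With 3 against 2 arrays, no exact two-sided permutation test can go below p = 0.1.

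Bcl2 encodes the founding survival protein of the family. Its log2 values were 9.28, 9.61 and 9.70 in DMSO replicates 1 to 3 and 7.96 and 7.07 in ATRA replicates 1 and 2. Both ATRA arrays lay below every DMSO array, and ATRA replicate 2 was the lowest. Bcl2 fell by 2.01 on the log2 scale (SE 0.32, limma adjusted p = 0.021) and was 4.04-fold lower. The DMSO mean was 9.53 ± 0.22 (SD, n = 3). The 1198 genes of like DMSO level had median differences of -1.35 and -2.57 in the 2 ATRA arrays, and Bcl2 had -1.57 and -2.46. It thus lay below its level peers in one array and above them in the other. Removal of the level trend left a change of -0.13 (95% interval -0.71 to 0.44, limma adjusted p = 0.756). Its call also ended after cyclic loess normalization (-0.55, limma adjusted p = 0.159) and after repeated quantile normalization (-1.44, limma adjusted p = 0.0503). The same held with the replicate block (-1.93, limma adjusted p = 0.16) and with array weights (-2.11, limma adjusted p = 0.131). Without the empirical Bayes prior Bcl2 did not pass either (limma adjusted p = 0.0796). A second feature named for Bcl2 was dim, at 4.94, 5.35 and 5.35 in DMSO and at 5.74 and 5.42 in ATRA, and did not share the fall. With both features averaged, Bcl2 differed by -0.82 (limma adjusted p = 0.0838).

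Bcl2l1 encodes BCL-XL, the survival protein best known in red cell precursors and platelets. It was at 7.27, 7.27 and 7.35 in the DMSO arrays and at 6.27 and 6.32 in the ATRA arrays. The 2 groups were well apart, and the ATRA arrays were only 0.05 apart, closer than those of Bcl2. DMSO replicates 1 and 2 held the exact same deposited value, which narrows the DMSO spread (SD 0.048) that the test uses. Bcl2l1 fell by 1.003 (SE 0.11, limma adjusted p = 0.0105), which is 2.005-fold lower. The 3448 genes of like level differed by -0.36 and -0.56, less than the -1.03 and -0.98 of Bcl2l1. With the level trend removed it still differed by -0.61 (95% interval -0.97 to -0.24), without passing over all genes (limma adjusted p = 0.0918). It kept its call after cyclic loess normalization (-0.85, limma adjusted p = 0.0207) and after repeated quantile normalization (-1.02, limma adjusted p = 0.021). The call ended with the replicate block (-0.98, limma adjusted p = 0.168) and with array weights (-1.02, limma adjusted p = 0.126), though the change was nearly as large. Without DMSO replicate 1, 2 or 3 no gene of the array passed, and the adjusted p was 0.0676, 0.0771 and 0.0843 for Bcl2l1 and 0.0905, 0.102 and 0.106 for Bcl2 (limma).

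Mcl1 encodes a short-lived survival protein. Its values were 7.62, 7.72 and 7.62 in DMSO and 7.62 and 7.17 in ATRA, so that ATRA replicate 1 lay level with DMSO and replicate 2 below it. The difference was -0.26 (95% interval -0.72 to 0.21, limma adjusted p = 0.284). It became 0.42 with the level trend removed (95% interval 0.09 to 0.75), 0.46 after cyclic loess and 0.22 after repeated quantile normalization. It passed in none of these fits. The 3392 genes of like level had medians of -0.56 and -0.93, against -0.03 and -0.48 for Mcl1. Without ATRA replicate 1 Mcl1 differed by -0.48, with the spread taken from DMSO alone. Its second, dimmer feature had a mean of 5.77 in DMSO and values of 5.75 and 6.35 in ATRA.

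**Figure D1:**
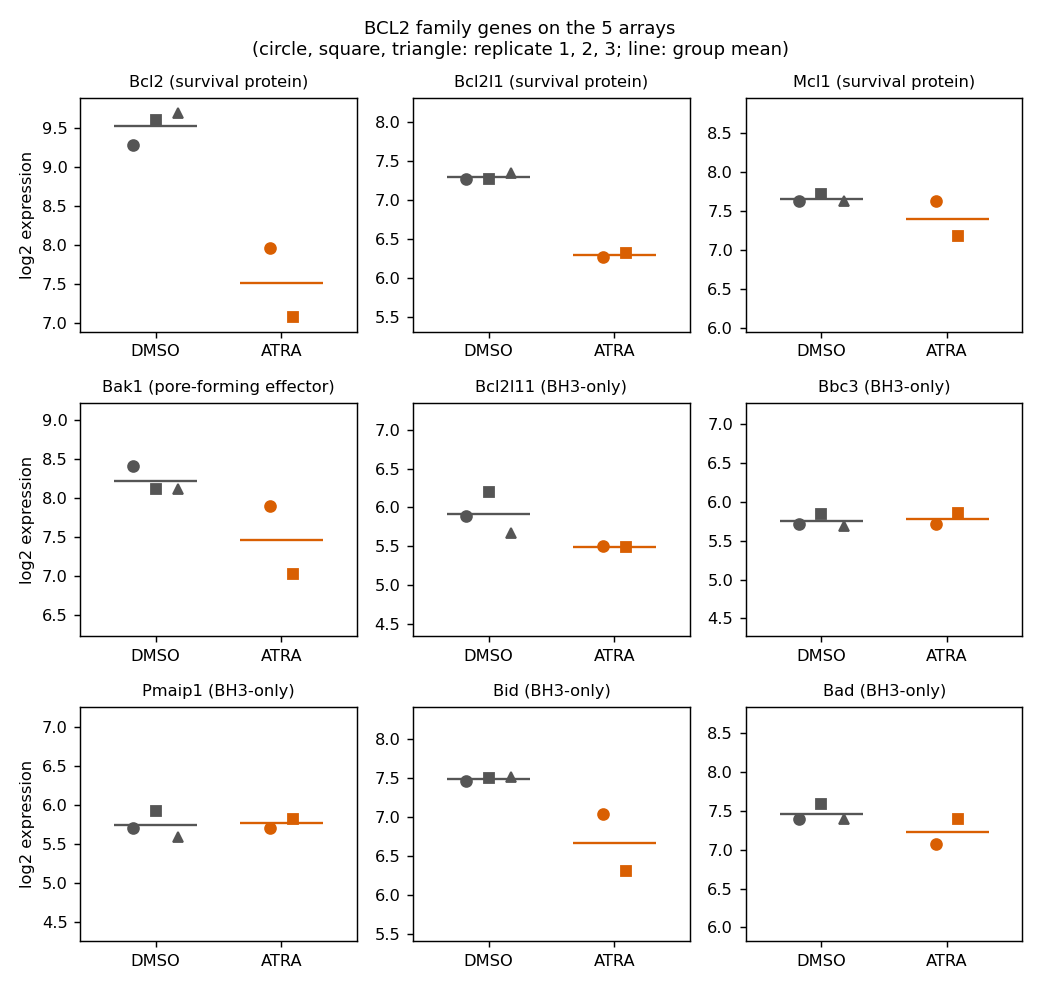
Deposited log2 expression of the 9 BCL2 family genes on the 3 DMSO arrays (grey) and the 2 ATRA arrays (orange), 1 panel per gene, each axis 3 log2 units tall; points are single arrays, marked by replicate number, and lines are group means. The ATRA points of Bcl2, Bcl2l1, Bak1, Bcl2l11 and Bid lie below all DMSO points, and those of Mcl1, Bbc3, Pmaip1 and Bad do not.

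Of the effectors, Bak1, which forms pores together with or in place of Bax, was at 8.42, 8.11 and 8.11 in DMSO and at 7.89 and 7.03 in ATRA. Both ATRA arrays lay below the DMSO arrays, with replicate 2 lower by 0.86 than replicate 1. The difference was -0.75 (SE 0.30, limma adjusted p = 0.14) and turned to 0.34 with the level trend removed and 0.25 after cyclic loess. The 2890 genes of like level differed by -0.84 and -1.45, and Bak1 by -0.32 and -1.18. Without ATRA replicate 1 Bak1 differed by -1.18, with the spread taken from DMSO alone.

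The BH3-only genes did not all differ from DMSO alike. Bid, whose protein is cleaved by caspase-8 and carries the death receptor signal to mitochondria, had the largest difference. It was at 7.45, 7.49 and 7.52 in DMSO and at 7.04 and 6.30 in ATRA, below DMSO in both arrays. Its difference of -0.82 (95% interval -1.48 to -0.16) did not pass over all genes (limma adjusted p = 0.0815). It passed after each array was centred on its median (-1.09, limma adjusted p = 0.0454), where 4542 of 22180 genes were called lower. The differences from DMSO were -0.45 and -1.19, beside -0.48 and -0.75 for 3397 genes of like level.

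Bcl2l11 encodes BIM, which binds all survival proteins and is a known target of FOXO factors. It was at 5.89, 6.20 and 5.67 in DMSO and at 5.50 and 5.49 in ATRA. The ATRA values were nearly equal and below all DMSO values, but the DMSO arrays spread over more than the ATRA arrays did. The difference was -0.43 (SE 0.19, 95% interval -0.94 to 0.09, limma adjusted p = 0.173). Genes of like level went the other way, with medians of 0.16 and 0.49 over 5457 genes, and Bcl2l11 had -0.42 and -0.43. With the level trend removed its difference was -0.81 (95% interval -1.35 to -0.27, limma adjusted p = 0.114), the lowest of the 9 members in that fit. Bcl2l11 was dim, with means of 5.92 in DMSO and 5.49 in ATRA, below the median of all features (6.03). Background may hold a large part of such values, which was not tested.

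Bbc3, which encodes the p53 target PUMA, was at 5.71, 5.85 and 5.69 in DMSO and at 5.71 and 5.85 in ATRA. Pmaip1, which encodes NOXA, the BH3-only partner of MCL1, was at 5.71, 5.92 and 5.58 in DMSO and at 5.71 and 5.82 in ATRA. Both genes were dim, below the median of all features (6.03) in each group. The means in DMSO and ATRA were 5.75 and 5.78 for Bbc3 and 5.74 and 5.76 for Pmaip1. For both genes the groups overlapped. The differences were 0.03 (95% interval -0.30 to 0.37) for Bbc3 and 0.03 (95% interval -0.38 to 0.43) for Pmaip1. Repeated quantile normalization, median centring, cyclic loess and removal of the level trend each turned both differences negative, to between -0.24 and -0.43, and neither gene passed in any fit. With the level trend removed the 95% interval was -0.75 to -0.03 for Bbc3 and -0.82 to 0.02 for Pmaip1. Genes of like level had medians of 0.19 and 0.55 for each of the 2 genes.

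Bad encodes a BH3-only protein that is silenced by phosphorylation when growth factors are present. It was at 7.39, 7.59 and 7.39 in DMSO and at 7.07 and 7.39 in ATRA, so that ATRA replicate 1 was low and replicate 2 was not. The difference was -0.23 (95% interval -0.65 to 0.20, limma adjusted p = 0.293), and 0.30 with the level trend removed. A feature shared with the neighbouring name Gpr137 had a mean of 7.16 in DMSO and values of 6.35 and 6.77 in ATRA and was not used for Bad.

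**Figure D2:**
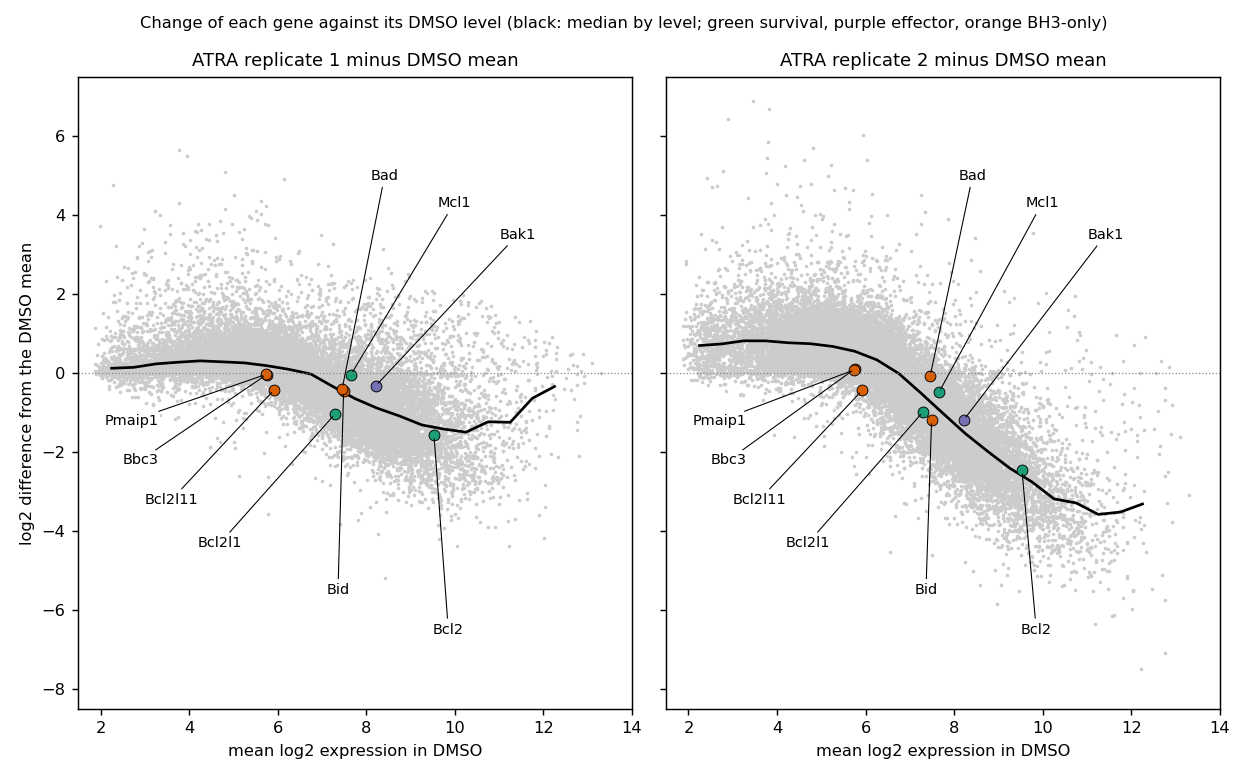
Log2 difference of each gene from its DMSO mean, in ATRA replicate 1 (left) and replicate 2 (right), against its mean log2 level in DMSO; grey points are all 22180 genes, the black line is the median in well filled steps of 0.5, and coloured points are the 9 members by role. Bcl2 lies near the line in both panels, Bcl2l1, Bcl2l11, Bbc3 and Pmaip1 lie below it in both, and Mcl1 and Bak1 lie above it in both. Bad lies near the line on the left and above it on the right.

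Set against genes of the same DMSO level, 4 members were lower than the median of their peers in both ATRA arrays: Bcl2l1, Bcl2l11, Bbc3 and Pmaip1. Of these, Bcl2l11, Bbc3 and Pmaip1 were dim, below the median of all features in both groups, and their peers had positive medians. Another 3 were higher in both, namely Mcl1, Bak1 and Bad, the last by little in replicate 1 (-0.39 against -0.45). Bcl2 and Bid were not on one side in both arrays. Survival and death genes stood on each side, as genes do of any median. The share of all genes on one side in both arrays was not computed. The median change of the 3 survival genes was -1.03 in ATRA replicate 1 and -0.98 in replicate 2, and that of the 6 death-promoting genes -0.35 and -0.25. With the level trend removed these medians were -0.37 and 0.11 for survival genes and -0.16 and -0.49 for death genes, so that their order held in replicate 1 and turned in replicate 2.

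Over the 9 members the median log2 fold change was -0.43, beside 0.16 over all genes, and the members' median DMSO level was 7.46, beside 6.20. With each array centred on its median, the median over all genes was -0.11 and that of the members -0.70. Both ATRA values lay below all DMSO values in 5 members, against 29.2% of all genes, and above them in 0 members, against 33% of all genes, so that 62.1% of all genes did not overlap in either direction. The exact same deposited value recurred on at least 2 arrays in 6 members, against 47.8% of all genes. In Mcl1, Bbc3, Pmaip1 and Bad an ATRA array shared its value with a DMSO array, as in 21.2% of all genes, and an equal value by itself makes the groups overlap.

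**Figure D3:**
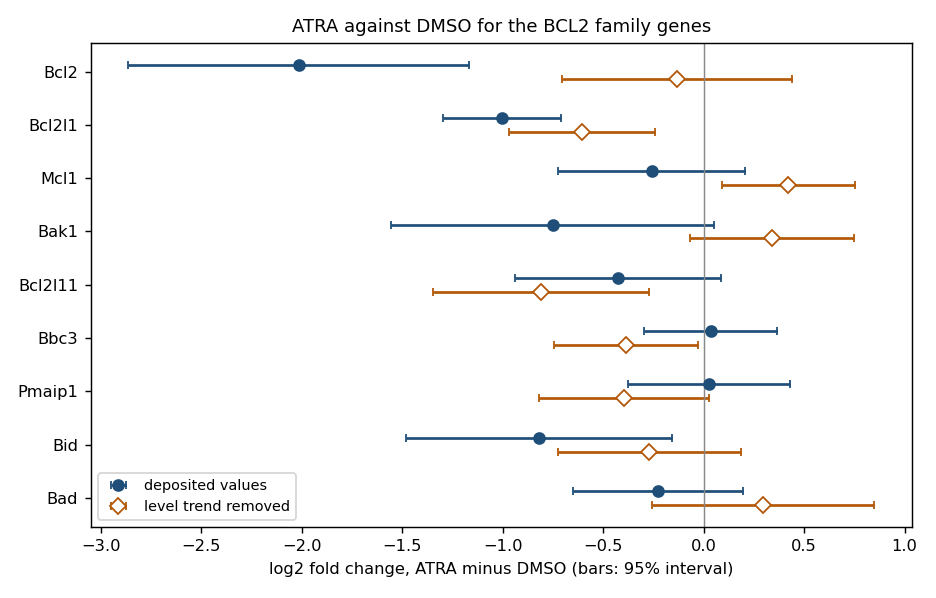
Log2 fold change of ATRA minus DMSO for the 9 members, from the deposited values (blue circles) and with the level trend removed (orange diamonds); bars are 95% intervals of the limma fit. Bcl2 moves from -2.01 to -0.13, Bcl2l1 from -1.003 to -0.61 and Bcl2l11 from -0.43 to -0.81, and the points of Mcl1, Bak1 and Bad cross from below to above 0.

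Of 63 listed genes that act beside the members, 55 were measured, and 15 fell, 0 rose and 40 did not pass (limma, 3 higher and 24 lower at an unadjusted p under 0.05). Over all genes 15.5% fell and 6.48% rose, and the counts of the single lists are to be read against these shares. None of 10 other BCL2 relatives passed (limma, 2 higher and 0 lower at an unadjusted p under 0.05), and their median difference was 0.27. Bik, Hrk, Bmf and Bcl2l15, named after their values were seen, had both ATRA values above all DMSO values, as 33% of all genes did. Bok (-0.48) and Bcl2l13 (-0.36) had both below, as 29.2% of all genes did. Hrk, a BH3-only gene best known in neurons, was at 4.72, 5.12 and 5.12 in DMSO and at 5.89 and 5.39 in ATRA. Its difference of 0.65 (limma adjusted p = 0.112) became 0.13 with the level trend removed.

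Of 16 genes of the mitochondrial death pathway, 6 fell, 0 rose and 10 did not pass, with a median of -0.71. Parp1, the DNA repair enzyme cut by caspases, fell by 2.195 (limma adjusted p = 0.00675), with a DMSO mean of 9.21 and ATRA values of 6.99 and 7.03. With the level trend removed the difference of Parp1 was -0.48 and did not pass (limma adjusted p = 0.478). Casp2, an initiator caspase, fell by 1.12 (limma adjusted p = 0.0107), a change that turned to 0.82 with the level trend removed. Htra2, a mitochondrial protease that is released with cytochrome c and blocks caspase inhibitors, fell by 3.43 (limma adjusted p = 0.0173), from 10.20 to 7.56 and 5.98. Htra2 also passed with the level trend removed (-1.23, limma adjusted p = 0.0325). Cycs, which encodes cytochrome c, had values of 11.52, 11.48 and 11.52 in DMSO and 12.17 and 11.22 in ATRA (difference 0.19, limma adjusted p = 0.626). Birc5, the mitotic survival factor survivin, went from a DMSO mean of 8.98 to 7.63 and 4.59 (limma adjusted p = 0.0942), with the ATRA arrays far apart.

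Of 9 death receptor genes, 1 fell, 0 rose and 8 did not pass, with a median of -0.53. Tnfrsf10b, the receptor of the death ligand TRAIL, was at 8.04, 7.87 and 7.63 in DMSO and at 6.15 and 5.99 in ATRA. Tnfrsf10b fell by 1.78 (limma adjusted p = 0.00876), and by 0.95 with the level trend removed, where it did not pass (limma adjusted p = 0.0619).

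Among 11 genes for turnover and partners of the family, 5 fell, 0 rose and 6 did not pass, with a median of -1.69. Huwe1 (-2.73, limma adjusted p = 0.0369) and Fbxw7 (-0.64, limma adjusted p = 0.0334) help to mark MCL1 for degradation. Usp9x (-1.96, limma adjusted p = 0.0377), which removes ubiquitin from MCL1, fell too. Vdac2, the mitochondrial channel that holds BAK, fell by 1.84 (limma adjusted p = 0.0128), and Tmbim6, an inhibitor of death at the endoplasmic reticulum, fell by 1.05 (limma adjusted p = 0.0305). Fbxw7 was the dimmest of these in DMSO, at 6.61, 6.47 and 6.47 against 5.79 and 5.96 in ATRA, and its difference was -0.79 with the level trend removed (limma adjusted p = 0.0547). None of these 5 genes passed in that fit, and the difference of Tmbim6 turned to 0.57.

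Of 9 transcription factors known to act on family genes, 3 fell, 0 rose and 6 did not pass, with a median of -0.55. Rela, an NF-kappaB subunit, fell by 3.14 (limma adjusted p = 0.00627), from 9.55, 9.39 and 9.54 in DMSO to 6.59 and 6.12 in ATRA. Stat5b, which carries cytokine signals to Bcl2l1, fell by 1.80 (limma adjusted p = 0.0102). With the level trend removed neither passed, at -1.27 for Rela (limma adjusted p = 0.0792) and -0.62 for Stat5b (limma adjusted p = 0.351). Myb, a known activator of Bcl2, fell by 3.51 (limma adjusted p = 0.0323), from 10.39 to 7.98 and 5.76, and passed with the level trend removed (-1.24, limma adjusted p = 0.0314). In that fit 3 of the 55 genes passed, Htra2 and Myb as lower and the channel gene Vdac3 as higher (1.14, limma adjusted p = 0.0421), against 2.98% of all genes. Vdac3, named after its values were seen, was at 11.02, 11.02 and 11.10 in DMSO and at 11.02 and 8.23 in ATRA. In the deposited values it differed by -1.42 (limma adjusted p = 0.249), so its direction turned with the level trend removed.

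Without DMSO replicate 1, 2 or 3 none of the 55 genes passed (limma, 18, 15 and 15 at an unadjusted p under 0.05). Without ATRA replicate 1, 34 of them fell and 5 rose, and 5 of the 9 members fell, in a fit where 64.1% of all genes passed and 30.6% fell. Without ATRA replicate 2, 25 of them fell and 5 rose, and 3 members fell, where 34.6% of all genes passed and 21.3% fell. Those fits take the spread of the single remaining ATRA array from DMSO.

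**Figure D4:**
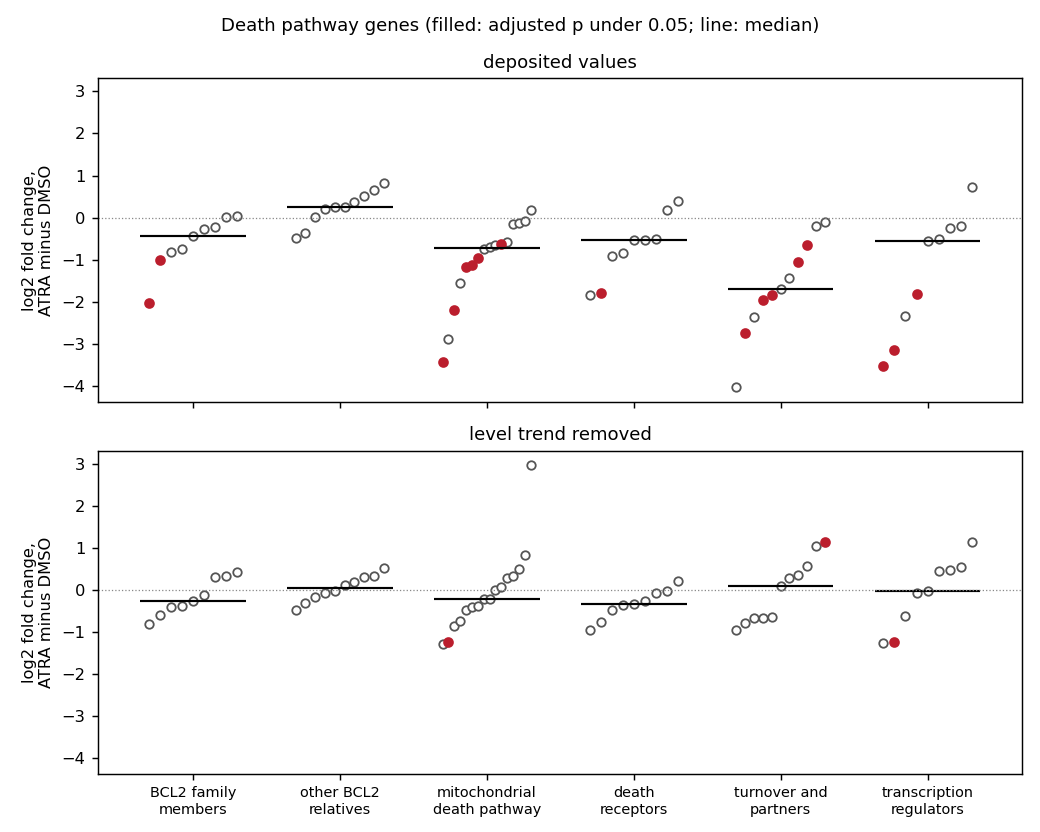
Log2 fold change of ATRA minus DMSO for the 9 members and 55 further genes in 5 lists, from the deposited values (top) and with the level trend removed (bottom); each point is a gene, filled where its adjusted p was under 0.05, and lines are list medians. In the upper panel the filled points, 2 members and 15 further genes, all lie below 0, and in the lower panel 3 are filled, 2 below and 1 above 0.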

How the data were processed

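The authors deposited log2 expression values, 1 per array feature and array, for 3 DMSO and 2 ATRA samples grouped by their titles. The submitters' processing notes name RMA, oligo 1.36.1 and limma 3.28.20 without role or order. The genome build is not given in the sources used here. Quantile steps in RMA and amplification of small RNA samples can compress differences, and depth has no meaning for arrays, whose number limits precision. Medians of the deposited arrays ran from 5.86 to 6.21 and SDs from 1.49 to 1.97, so the arrays did not share 1 distribution. Whether an earlier quantile step covered all 5 arrays is not known, and the part of either step here was not tested. Of 41345 features, 25335 were listed in the platform annotation and 23521 named 1 gene, of which 23328 matched the GRCm38.p6 gene table by identifier. The 22180 genes were fitted with limma 3.58.1 (R 4.3.3; lmFit and eBayes, 2 group means, two-sided, 3 residual degrees of freedom, prior 1.52), and p-values were adjusted over all of them by Benjamini-Hochberg, with 0.05 as the threshold. The script was tested on simulated data. Removing the level trend subtracted from each array a loess fit (span 0.3) of its difference from the DMSO mean on the DMSO mean. Named genes are all members and, per further list, every called gene where 5 or fewer, otherwise the 3 called genes with the smallest p and the 2 genes not called with the highest DMSO mean. Members and lists were chosen with earlier results of these data known. The alternatives left out each array or dim genes, added the replicate block, and changed normalization, variance model, feature choice and threshold.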

Additional observations from a re-analysis of the deposited data

How the results depend on the processing

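The 5 arrays set the limits: no gene passed when any 1 DMSO array was left out. Over the fits that left out 1 array each, the count of all genes called ran from 0 to 14207, that of members from 0 to 5, that of the 55 further genes from 0 to 39, and the members' median from -0.55 to -0.28. Replicate numbers are shared by DMSO and ATRA but pair nothing in the labels. With the replicate block the counts were 0, 0 and 0 (limma, 5412 genes, 2 members and 16 further genes at an unadjusted p under 0.05), the median was -0.55 and Pmaip1 differed by -0.050. Deviations from the group means correlated at r = 0.13 for replicate 1 and 0.098 for replicate 2, beside 0.071 between DMSO replicate 3 and ATRA replicate 2. With 2 ATRA arrays their deviations mirror each other, so these values are not independent. Array weights also gave 0, 0 and 0 (4377, 3 and 18 at an unadjusted p under 0.05). In the order all genes, members, further genes, the counts were 2182, 1 and 8 after repeated quantile normalization, 2275, 1 and 9 after cyclic loess, 662, 0 and 3 with the level trend removed, and 1691, 1 and 7 without the empirical Bayes prior. At a threshold of 0.1, 7755 genes and 23 further genes passed. Averaging features left 1 member. The members' median was -0.32 after quantile normalization, -0.70 after median centring, -0.27 with the level trend removed and -0.79 with dim genes left out, which kept 6 members. Higher and lower genes numbered 771 and 1504 after cyclic loess, and 7424 and 6783 without ATRA replicate 1, where the excess of lower genes turned. Directions of members without a call turned as follows. Mcl1 was at 0.22 (quantile), 0.46 (cyclic loess), 0.42 (level trend removed) and 0.010 (features averaged), and Bad at 0.24, 0.33 and 0.30 in the first 3 of these. Bak1 was at 0.25 (cyclic loess) and 0.34 (level trend removed). Bbc3 was at -0.31 (quantile), -0.24 (centred), -0.42 (cyclic loess) and -0.39 (level trend removed), and Pmaip1 at -0.32, -0.24, -0.43 and -0.40. With 1 array left out, Bbc3 ran from -0.037 to 0.11 and Pmaip1 from -0.050 to 0.12. Bcl2, Bcl2l1, Bcl2l11 and Bid were lower in ATRA in every fit run. The cause of these shifts was not tested.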
